A study of Mus musculus with 12 samples.

Results

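Collagens are the triple-helical proteins that form the main scaffold of the extracellular matrix, and the genes described here are all those of the table whose mouse symbol has the form Col, a type number, a and a chain number. They are 39 of 24770 genes. The threshold for testing was 1 FPKM (fragments scaled by transcript length and library size) in at least 3 of the 12 libraries, and 19 of the 39 collagens reached it. The other 20 were below it, and all of them are accounted for below.

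RNA from GC-2, an established mouse germ-cell line that the labels call type B spermatogonia of wild-type genotype, was sequenced after 24 h in 4 groups of 3 libraries. The groups were DMSO in normoxia, DMSO in hypoxia (1% O2), 1 µM MLN4924 in normoxia and 1 µM MLN4924 in hypoxia, with DMSO as the solvent control. The cell type label carries a different number for each sample, GC-2 for the first and GC-13 for the last, but titles and cell line labels all name GC-2, and that name is used here. MLN4924 blocks the NEDD8-activating enzyme and thereby the cullin-RING ubiquitin ligases. The series title places these groups in a study of whether that block adds to cell death under hypoxia.

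Each collagen chain is made in the endoplasmic reticulum, where prolyl and lysyl hydroxylases modify it and the chaperone HSP47 (Serpinh1) assists its folding, and 3 chains wind into a helix. Fibrillar collagens (types I, III and V among those detected) are trimmed outside the cell and assemble into fibrils that lysyl oxidases crosslink. Basement membrane collagens (types IV, XV and XVIII) form or bind to sheet-like networks, type VI forms beaded filaments, and the fibril-associated collagens (such as types XII and XVI) attach to fibrils or other matrix. In testis, collagens are products mainly of somatic cells around the tubules. Hypoxia-inducible factors bind DNA at sites with the core ACGTG or GCGTG and are known to raise transcription of collagen hydroxylases in many cell types.

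Because the fibrillar genes moved together under hypoxia in the comparisons below, the stretch before the annotated starts of the collagens was searched for both forms of this core. RefSeq promoter entries (GRCm38.p6, 250 bases before the start, both strands searched) were found by symbol for 15 of the 19 tested collagens, with 17 windows in all. No entry was found for Col1a1, Col5a2, Col12a1 and Col22a1. One form or the other was present in 7 of the 17 windows (41.2%) and in 38.6% of all 32851 windows of the same length, so the collagens stood near the share of all genes. The form ACGTG was in 2 of the 17 (11.8%, against 16.6% of all windows), those of Col1a2 (chr6:4505368-4505617, plus strand, 2 matches) and Col5a1 (chr2:27886175-27886424, plus strand, 1 match). The form GCGTG was in 5 (29.4%, against 28.2%), those of Col5a3, Col4a1, Col4a2, Col6a2 and Col16a1. The windows with ACGTG are shown as examples from fibrillar genes that rose with hypoxia, with these letters in capitals in their reverse-complement form CACGT:
Col1a2: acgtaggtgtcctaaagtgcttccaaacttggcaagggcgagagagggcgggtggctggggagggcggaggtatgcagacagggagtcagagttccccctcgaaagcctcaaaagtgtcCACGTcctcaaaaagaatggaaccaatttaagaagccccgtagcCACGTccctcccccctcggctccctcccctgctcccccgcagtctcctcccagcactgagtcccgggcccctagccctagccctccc
Col5a1: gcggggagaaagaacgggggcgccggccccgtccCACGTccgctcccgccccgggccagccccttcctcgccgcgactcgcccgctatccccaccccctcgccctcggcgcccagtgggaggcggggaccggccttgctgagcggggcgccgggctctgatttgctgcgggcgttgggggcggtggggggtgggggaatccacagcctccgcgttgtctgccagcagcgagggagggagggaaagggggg

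A match of 5 letters is a description of the sequence and not a binding site. Of the other motifs searched, GGAATG (the core of TEAD sites) was in 17.6% of the collagen windows and 12.6% of all windows, CCAAT in 47.1% and 33.8%, and TATAAA in 5.88% and 12.4%. On chromosome 8 of that build the annotated starts of Col4a1 and Col4a2 lie on opposite strands, 21 nt apart. They are at 11312826 for Col4a1 (minus strand) and 11312805 for Col4a2 (plus strand). The windows of these genes lie on either side of the starts and share no base, so their GCGTG matches are different sites. The starts of Col4a5 and Col4a6 on chromosome X lie 1343 nt apart, also on opposite strands, but with their windows between the starts.

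One library has to be described before the results. DMSO hypoxia replicate 1 had a total of 633597 FPKM against 530452 to 557779 in the other 11 libraries, and its mean Spearman correlation with its own group was 0.926. Its difference from replicates 2 and 3 of its group fell with transcript length over all tested genes, from a median of 0.36 (log2) in the shortest of 5 length bins to -0.41 in the longest (Spearman correlation across 12003 genes -0.513). Collagen transcripts are long: 17 of the 19 tested collagens were in the longest bin. Of the 19, 16 were lower in replicate 1 than in the mean of replicates 2 and 3 (84.2%, against 46.4% of all tested genes with a length), with a median log2 difference of -0.36 (0.04 over those genes). Among the 19 alone, the Spearman correlation of this difference with length was -0.16. Col12a1, the longest at 11511 nt, stood at 49.0% of the other replicates, and Col6a3 and Col18a1 were listed at 0 in that library alone. The 3 exceptions were Col5a1 at 127% of the other replicates, Col7a1 at 118%, and Col16a1, whose other replicates lay on either side of replicate 1. The tests of collagens are therefore given with 12 libraries and, where DMSO hypoxia replicate 1 enters or the call differs, with the 11 left without it. The part of transcript length in the collagen values of this library was not tested.

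**Figure D1:**
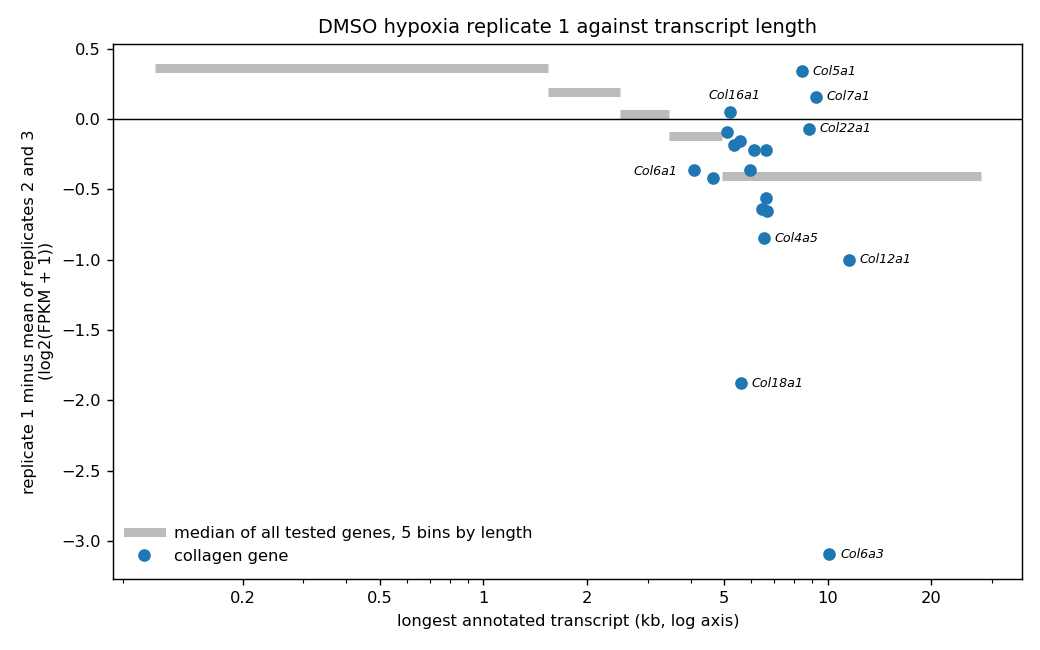
Each point is 1 tested collagen, with the length of its longest annotated transcript on a log axis (kb) and the log2(FPKM + 1) value of DMSO hypoxia replicate 1 minus the mean of replicates 2 and 3 on the vertical axis. Grey bars are medians of all tested genes in 5 bins of length, falling from 0.36 to -0.41, and 16 of the 19 collagens lie below 0.

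The label of the cells was set beside markers. Of 10 spermatogonial markers, 6 were in the table and 2 were tested, Uchl1 (10.8 to 22.4 FPKM) and Gfra1 (1.14 to 6.23), while Kit, Ddx4 and Sohlh1 stayed below 0.1 FPKM in all 12 libraries. Fibroblast and peritubular markers, from cells that make fibrillar collagen in testis, were represented by 7 genes of which 4 were tested. Their summed level was 64.9 to 66.4 FPKM in DMSO normoxia, 32.3 to 41.8 in DMSO hypoxia, 372 to 391 in MLN4924 normoxia and 396 to 434 in MLN4924 hypoxia, most of it Acta2, the smooth muscle actin (24.4 to 423 FPKM). Dcn reached at most 0.78 FPKM, Thy1 0.11 and Myh11 0.02. This sum was higher with MLN4924, where most fibrillar collagens fell, but the members did not all follow Acta2. In normoxia Cnn1 rose with MLN4924 (0.427 to 1.32 FPKM). The mean of Pdgfra there was 8.80 FPKM with DMSO and 9.13 with MLN4924, and that of Pdgfrb was 3.68 and 2.41 (limma adjusted p = 0.156 with 12 libraries and 0.0277 with 11). With hypoxia in DMSO Acta2 fell 1.86-fold and Pdgfrb 1.66-fold (limma adjusted p = 3.00e-05 and 0.0190). With 11 libraries these falls were 1.85-fold and 1.40-fold (limma adjusted p = 5.42e-05 and 0.0278). Pdgfra and Cnn1 passed with neither set there.

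Of 6 Sertoli genes measured, 4 were tested, and their summed level was 39.0 to 48.2 FPKM in DMSO normoxia, 42.5 to 49.6 in DMSO hypoxia, 33.5 to 38.2 in MLN4924 normoxia and 36.2 to 41.1 in MLN4924 hypoxia. Within it Wt1 rose with hypoxia in DMSO (0.463 to 6.56 FPKM, 5.11-fold and 4.76-fold with 11 libraries) and in MLN4924 (0.167 to 1.96 FPKM, 2.54-fold). Sox9 fell 2.17-fold with MLN4924 in normoxia. Its log2 change with hypoxia in DMSO was 0.28 (limma adjusted p = 0.123), and 0.38 with 11 libraries (0.0416). The mean of Sox9 was 7.70 FPKM in DMSO hypoxia, 2.28 in MLN4924 normoxia and 3.93 in MLN4924 hypoxia. Clu, the largest part of the sum (22.2 to 33.7 FPKM), and Gata4 did not follow Wt1. Their log2 changes with hypoxia in DMSO were -0.25 and -0.28 (limma adjusted p = 0.0832 and 0.476), and -0.24 and 0.0031 with 11 libraries, where neither passed. Star was the single tested gene among the 4 Leydig genes measured; the sum was 11.3 to 12.1 FPKM in DMSO normoxia, 2.84 to 6.08 in DMSO hypoxia, 1.61 to 3.83 in MLN4924 normoxia and 3.29 to 6.63 in MLN4924 hypoxia. Star fell 2.22-fold with hypoxia in DMSO (1.84-fold with 11 libraries) and 3.89-fold with MLN4924 in normoxia. With hypoxia in MLN4924 it rose, from 2.17 to 5.08 FPKM (log2 0.97). Leukocyte genes (2, 1 tested) summed to 1.33 to 2.11 FPKM in the other groups and 3.39 to 3.86 in MLN4924 hypoxia, and the 4 endothelial genes, none tested, to at most 0.35. The part of these markers in the collagen results was not tested. In bulk RNA, fewer cells making a collagen and less of its RNA per cell cannot be told apart.

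Collagen RNA in these cells was mostly type I. All 39 collagens together took 1767 ± 18 FPKM in DMSO normoxia, 1862 ± 218 in DMSO hypoxia, 1229 ± 4.66 in MLN4924 normoxia and 1517 ± 9.24 in MLN4924 hypoxia (SD, n = 3 each). These are 0.324%, 0.332%, 0.221% and 0.277% of the summed FPKM of all genes. In DMSO hypoxia, replicate 1 stood at 1610 FPKM, and the mean of the other replicates was 1988 FPKM (0.371% of all FPKM). The pair of chains of type I collagen, Col1a1 and Col1a2, made up 65.6% of collagen FPKM in DMSO normoxia, 69.6% in DMSO hypoxia (69.1% without replicate 1), 57.6% in MLN4924 normoxia and 59.6% in MLN4924 hypoxia.

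The makeup by class differed between groups. Fibrillar collagens held 74.7 ± 0.233% of collagen FPKM in DMSO normoxia and 80.8 ± 1.89% in DMSO hypoxia (79.8% without replicate 1), and 70.0 ± 0.255% and 73.2 ± 0.619% in MLN4924 normoxia and hypoxia. Basement membrane collagens held 10.1% and 7.28% in DMSO, normoxia first (7.87% in hypoxia without replicate 1), and 17.1% and 14.3% in MLN4924. Type VI held 12.5% in DMSO normoxia and between 6.71% and 8.41% in the other groups. For the fibrillar share, no library of one oxygen level overlapped with one of the other within a treatment. The type VI share was higher in each of the 3 DMSO normoxia libraries than in any other library.

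**Figure D2:**
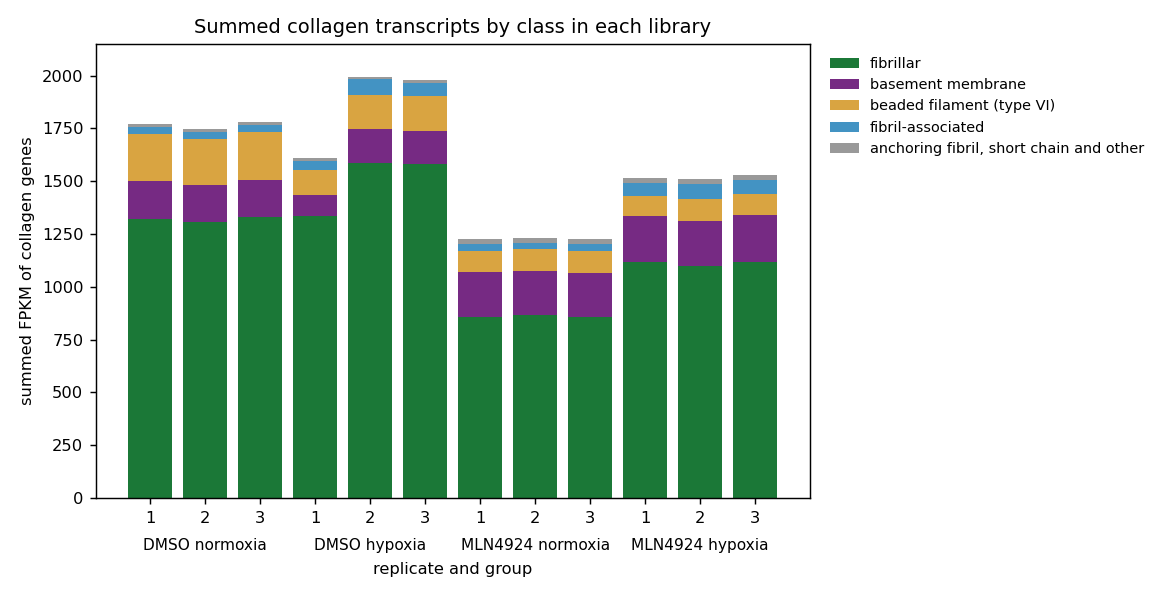
Bars give the summed FPKM of all 39 collagens in each of the 12 libraries, split by class. The 3 MLN4924 normoxia libraries have the lowest sums, from 1224 to 1234 FPKM, and DMSO hypoxia replicate 1 stands at 1610 below the other libraries of its group.

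Tests used limma on log2(FPKM + 1) over all 12311 tested genes, and the words rose and fell are kept for an adjusted p (Benjamini-Hochberg) under 0.05. The scale of every fold is FPKM + 1, and the error printed after a log2 change is its standard error in that fit. Under hypoxia in DMSO, 7 of the 19 tested collagens rose and 4 fell, where 13.8% of all tested genes rose and 19.4% fell. With 11 libraries the counts were again 7 and 4 (14.8% and 23.9% of all genes). After MLN4924 in normoxia 1 rose and 6 fell (9.33% and 10.7% of all genes), and with 11 libraries 4 rose and 10 fell (16% and 18.2%). After MLN4924 in hypoxia 5 rose and 8 fell with either set (12.2% and 13.3% of all genes with 12 libraries, 16.8% and 15.7% with 11). For hypoxia in MLN4924, 7 rose and none fell (11.7% and 16.5% of all genes). There, 8 collagens were higher and 1, Col7a1, was lower at an unadjusted p under 0.05, and with 11 libraries 10 rose and none fell (17.9% and 24.7%), with 2 lower at an unadjusted p under 0.05. Hypoxia in DMSO and MLN4924 in normoxia share the DMSO normoxia libraries, and the other comparisons that touch the same group share its libraries too. A comparison without DMSO hypoxia has the same fold with 12 and with 11 libraries, and only its error and p differ.

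All 3 libraries of a group lay apart from all 3 of the other for 11 of the 19 collagens for hypoxia in DMSO (45.2% of all genes), 15 for MLN4924 in normoxia (48.5%), 13 for MLN4924 in hypoxia (38%) and 14 for hypoxia in MLN4924 (53.3%). With each library rescaled to the same total FPKM, 2 collagens (Col5a1 and Col5a3) rose and 3 fell with hypoxia in DMSO. That rescaling ended 10 of the 38 collagen calls: Col1a2, Col3a1, Col5a2, Col4a2, Col12a1 and Col16a1 for hypoxia in DMSO, Col4a5, Col6a2 and Col16a1 for MLN4924 in hypoxia, and Col1a1 for hypoxia in MLN4924. Median-of-ratios scaling ended 1, Col4a2 for hypoxia in DMSO, and neither changed the sign of a call. Over all genes, 41.5% of those called for hypoxia in DMSO were higher, and 52% with median-of-ratios scaling.

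Fibrillar collagens rose under hypoxia and, except for Col5a2, were lower with MLN4924. Of the 6 tested, 5 rose with hypoxia in DMSO (6 with 11 libraries) and 6 rose with hypoxia in MLN4924. MLN4924 lowered 4 of the 6 in normoxia (5 with 11 libraries) and 5 of the 6 in hypoxia. Among all tested genes, 13.8% rose with hypoxia in DMSO (14.8% with 11 libraries) and 11.7% with hypoxia in MLN4924 (17.9%). With MLN4924, 10.7% of all genes fell in normoxia (18.2% with 11 libraries) and 13.3% in hypoxia (15.7%). The median log2 change of the class was 0.25 for hypoxia in DMSO (0.31 with 11 libraries), -0.65 for MLN4924 in normoxia, -0.48 for MLN4924 in hypoxia (-0.54 with 11) and 0.38 for hypoxia in MLN4924. Over all tested genes these medians were -0.08, -0.03, -0.01 and -0.05.

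Col1a1 encodes the α1 chain of type I collagen, the main fibril protein of bone, skin and tendon. Its FPKM values in replicates 1 to 3 were 612, 615 and 625 in DMSO normoxia, 575, 739 and 739 in DMSO hypoxia, 367, 367 and 365 in MLN4924 normoxia and 474, 451 and 469.9 in MLN4924 hypoxia. Replicate 1 of DMSO hypoxia was below all DMSO normoxia libraries and the other replicates were above them, so these groups overlapped, while both MLN4924 groups lay below every DMSO library. MLN4924 lowered Col1a1 by 1.68-fold in normoxia (log2 -0.75 ± 0.085, limma adjusted p = 0.000184) and by 1.46-fold in hypoxia (adjusted p = 0.00115, and 1.59-fold with 11 libraries). Hypoxia raised it 1.27-fold in MLN4924 (limma adjusted p = 0.0128). In DMSO the change with hypoxia was 0.14 ± 0.085 (log2, limma adjusted p = 0.234) with 12 libraries and 0.26 ± 0.026 (adjusted p = 5.28e-05) with 11.

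Its partner chain Col1a2 stood at 544, 533 and 546 FPKM in DMSO normoxia, 558, 634 and 636 in DMSO hypoxia, 338, 342 and 343 in MLN4924 normoxia and 439, 438 and 443 in MLN4924 hypoxia. No pair of groups overlapped. The rise with hypoxia was 1.12-fold in DMSO (limma adjusted p = 0.0361) and 1.29-fold in MLN4924 (adjusted p = 0.000718). The DMSO call held with DMSO hypoxia replicate 1 left out (1.17-fold, limma adjusted p = 4.21e-05) and was lost when any one of the other 11 libraries was left out (limma adjusted p up to 0.107). MLN4924 lowered Col1a2 by 1.59-fold in normoxia and 1.38-fold in hypoxia (limma adjusted p = 2.22e-05 and 0.000206), the latter 1.44-fold with 11 libraries.

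Col3a1, the single chain of type III collagen, which forms fine fibrils with type I, was far less abundant per length than Col1a1 (ratio 0.017 ± 0.000653 in DMSO normoxia). It stood at 10.4, 10.1 and 11.1 FPKM in DMSO normoxia, 11.8, 13.5 and 13.1 in DMSO hypoxia, 6.49, 6.41 and 6.48 in MLN4924 normoxia and 8.69, 9.43 and 8.16 in MLN4924 hypoxia. The 4 groups did not overlap, and their order was that of Col1a2. Hypoxia raised it 1.20-fold in DMSO (limma adjusted p = 0.0252) and 1.31-fold in MLN4924 (0.00393), and MLN4924 lowered it 1.54-fold in normoxia (0.000284) and 1.41-fold in hypoxia (0.00104). With 11 libraries the rise in DMSO was 1.24-fold (limma adjusted p = 0.00614) and the fall with MLN4924 in hypoxia 1.46-fold (0.000297). With 12, the DMSO call was lost without DMSO normoxia replicate 1 or 2 or DMSO hypoxia replicate 2 or 3 (limma adjusted p up to 0.0892).

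Type V collagen is a minor fibril component that limits fibril width, and its 3 chains are described in turn. Col5a1 stood at 35.6, 36.2 and 32.3 FPKM in DMSO normoxia, 64.4, 50.5 and 50.8 in DMSO hypoxia, 27.5, 28.9 and 26.8 in MLN4924 normoxia and 40.0, 37.0 and 46.6 in MLN4924 hypoxia. Every hypoxia library was above every normoxia library. Its rise with hypoxia was 1.57-fold in DMSO (limma adjusted p = 0.00118, and 1.45-fold with 11 libraries, 0.00103) and 1.46-fold in MLN4924 (0.00364). With MLN4924 it fell 1.33-fold in hypoxia (limma adjusted p = 0.0184), a call lost without MLN4924 hypoxia replicate 1 or 2 (up to 0.0701), and it was 1.23-fold with 11 libraries (0.027). In normoxia its log2 change was -0.31 ± 0.11 (limma adjusted p = 0.0673, and 0.0124 with 11 libraries).

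Col5a2 was the one tested fibrillar collagen that was higher, not lower, with MLN4924. Its values were 103, 101 and 100.3 FPKM in DMSO normoxia, 108, 129.6 and 122 in DMSO hypoxia, 114, 118 and 111 in MLN4924 normoxia and 149.7, 153 and 141 in MLN4924 hypoxia. MLN4924 hypoxia was the highest group, with no overlap with any other. Hypoxia raised Col5a2 1.18-fold in DMSO (limma adjusted p = 0.0191) and 1.29-fold in MLN4924 (0.00214). MLN4924 raised it 1.23-fold in hypoxia (limma adjusted p = 0.00711), and the 1.13-fold difference in normoxia passed with 11 libraries (0.00767) and not with 12 (0.0966). With 11 libraries Col5a2 rose 1.24-fold with hypoxia in DMSO (limma adjusted p = 0.000416) and 1.17-fold with MLN4924 in hypoxia (0.00291). With 12, the DMSO call for hypoxia was lost without DMSO normoxia replicate 2 or 3 or DMSO hypoxia replicate 2 (limma adjusted p up to 0.0599).

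Col5a3 had the largest change with MLN4924 of any tested collagen that passed. It stood at 13.5, 12.3 and 13.4 FPKM in DMSO normoxia, 17.8, 20.2 and 21.7 in DMSO hypoxia, 2.55, 4.04 and 3.57 in MLN4924 normoxia and 6.55, 7.67 and 7.01 in MLN4924 hypoxia. The 4 groups were apart, with both MLN4924 groups below both DMSO groups. MLN4924 lowered it 3.24-fold in normoxia (log2 -1.69 ± 0.13, limma adjusted p = 1.34e-05) and 2.59-fold in hypoxia (-1.37 ± 0.13, 5.27e-05). Hypoxia raised it 1.48-fold in DMSO (limma adjusted p = 0.00666) and 1.86-fold in MLN4924 (0.000589). All 4 calls passed in each of the 12 fits that left out 1 library, and with 11 libraries the rise in DMSO was 1.56-fold and the fall with MLN4924 in hypoxia 2.72-fold. The other 4 fibrillar genes of the table, Col11a1, Col11a2, Col24a1 and Col27a1, were not tested, and none exceeded 0.67 FPKM in any library.

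**Figure D3:**
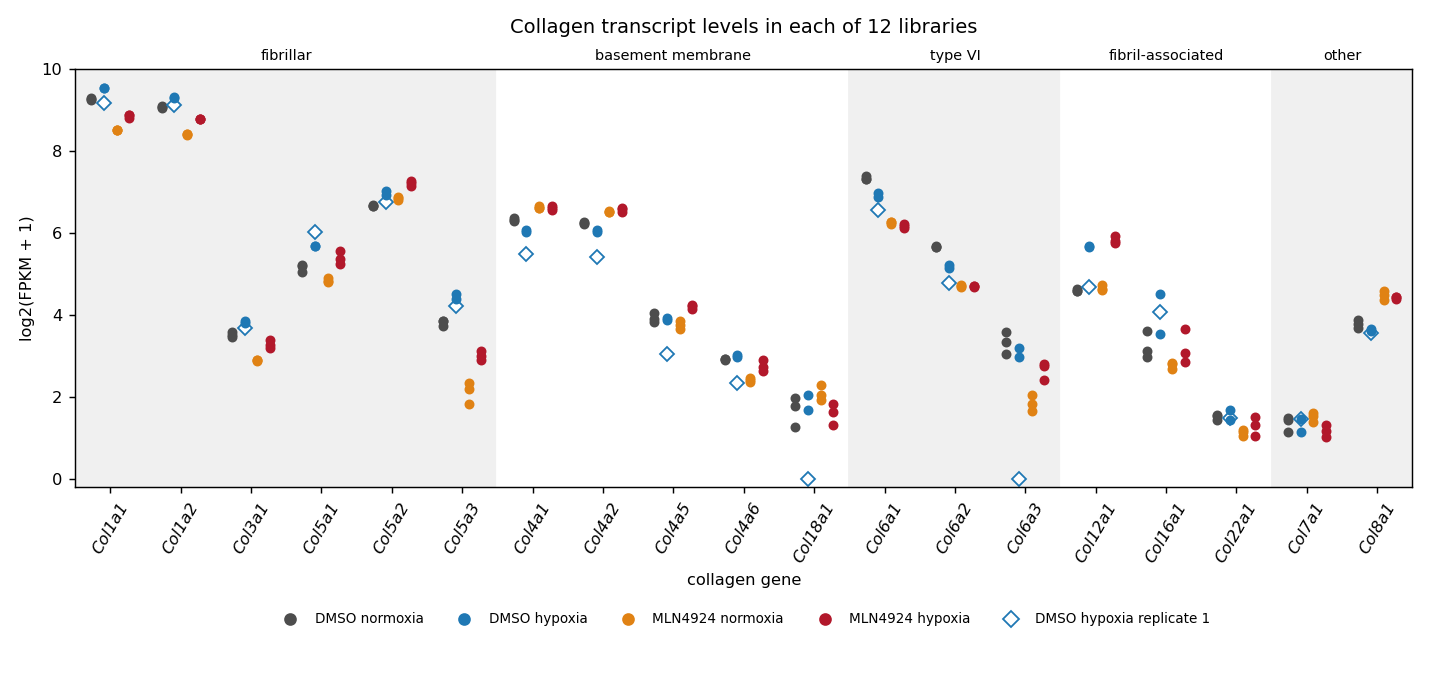
The vertical axis is log2(FPKM + 1) for each of the 19 tested collagens, with 1 point per library coloured by group and an open diamond for DMSO hypoxia replicate 1. Type I chains lie between 338 and 739 FPKM; Col5a3 separates the treatments, with MLN4924 libraries at 2.55 to 7.67 FPKM and DMSO libraries at 12.3 to 21.7.

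Among basement membrane collagens, Col4a1 and Col4a2 fell with hypoxia in DMSO and rose with MLN4924 in hypoxia, each time opposite to Col1a2. Of the 5 tested, none rose and 2 fell with hypoxia in DMSO, while 3 rose and none fell with MLN4924 in hypoxia (3 and 1 with 11 libraries). With hypoxia in DMSO 19.4% of all tested genes fell (23.9% with 11 libraries), so with 5 genes a count of 2 is little above that share. With MLN4924 in hypoxia 12.2% of all genes rose (16.8% with 11). The median log2 change of the 5 was -0.41 for hypoxia in DMSO (-0.03 with 11 libraries) and 0.58 for MLN4924 in hypoxia (0.30 with 11). In normoxia none of the 5 passed with MLN4924 with 12 libraries, and 2 rose and 1 fell with 11 (16% and 18.2% of all genes).

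Col4a1 and Col4a2 encode the α1 and α2 chains, which make up the common type IV network of nearly all basement membranes. Col4a1 stood at 81.6, 77.4 and 78.8 FPKM in DMSO normoxia, 44.4, 66.8 and 64.8 in DMSO hypoxia, 100.2, 97.2 and 97.7 in MLN4924 normoxia and 96.4, 94.1 and 100.1 in MLN4924 hypoxia. Col4a2 stood at 76.6, 74.4 and 74.7 FPKM in DMSO normoxia, 41.5, 66.6 and 64.0 in DMSO hypoxia, 90.4, 92.3 and 90.6 in MLN4924 normoxia and 94.6, 91.2 and 96.9 in MLN4924 hypoxia. For both genes the DMSO hypoxia libraries were the lowest, DMSO normoxia lay in between, and the MLN4924 groups were highest and overlapped each other.

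With hypoxia in DMSO, Col4a1 fell 1.37-fold (log2 -0.45 ± 0.12, limma adjusted p = 0.0183) and 1.20-fold with 11 libraries (-0.27 ± 0.038, 0.000441). Col4a2 fell 1.33-fold (limma adjusted p = 0.043) and 1.15-fold with 11 (log2 -0.41 and -0.20, 0.00161). Both falls were thus smaller without DMSO hypoxia replicate 1, and both passed without it. The Col4a1 call was lost without DMSO normoxia replicate 1 (limma adjusted p = 0.0580). That of Col4a2 was lost without any one of the DMSO normoxia or MLN4924 libraries (up to 0.104).

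MLN4924 in hypoxia raised Col4a1 1.67-fold and Col4a2 1.66-fold (limma adjusted p = 0.00178 and 0.00358), and 1.46-fold and 1.44-fold with 11 libraries. In normoxia the differences of 1.24-fold and 1.21-fold were separate in all libraries. They missed the threshold with 12 libraries (limma adjusted p = 0.112 and 0.211) and passed with 11 (9.66e-05 and 0.000144). For hypoxia in MLN4924, no change was detected in either, and the intervals (95%) of the log2 change ran from -0.30 to 0.25 for Col4a1 and from -0.26 to 0.36 for Col4a2.

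Col4a5 and Col4a6 encode chains of the second type IV network, found in smooth muscle and some epithelial basement membranes. Col4a5 stood at 15.6, 13.2 and 14.1 FPKM in DMSO normoxia, 7.33, 14.2 and 13.8 in DMSO hypoxia, 13.6, 12.6 and 11.7 in MLN4924 normoxia and 16.7, 17.7 and 17.9 in MLN4924 hypoxia. MLN4924 hypoxia was above every other library. Its difference from DMSO hypoxia was 1.50-fold with 12 libraries (limma adjusted p = 0.0481) and 1.23-fold with 11 (0.0168). With 12, that call was lost without any one of the DMSO normoxia or MLN4924 libraries (limma adjusted p up to 0.120). For hypoxia in MLN4924 its difference of 1.35-fold passed with 11 libraries (limma adjusted p = 0.000853) and not with 12 (0.12). Col4a6 ranged from 4.12 to 7.22 FPKM over all libraries. It passed no test with 12 libraries, and with 11 it was 1.41-fold lower with MLN4924 in normoxia (limma adjusted p = 0.000817), 1.19-fold lower with it in hypoxia (0.0483) and 1.27-fold higher with hypoxia in MLN4924 (0.00534).

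Col18a1, whose C-terminal fragment is endostatin, was near the threshold: it was listed at 0 in DMSO hypoxia replicate 1, ranged from 1.41 to 3.95 FPKM elsewhere, and passed no test with either set of libraries. Col15a1, its relative, was the untested collagen nearest to the threshold. It stood at 1.54 and 1.61 FPKM in DMSO hypoxia replicates 2 and 3 and from 0.28 to 0.67 in the other 10 libraries. Col4a3 and Col4a4, the chains of the kidney glomerular network, did not exceed 0.08 FPKM.

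Type VI collagen forms the beaded filament that links cells to fibrils, and its chains Col6a1 and Col6a2 were lower in the other 3 groups than in DMSO normoxia. Col6a1 stood at 160.4, 159 and 166 FPKM in DMSO normoxia, 93.5, 116 and 124 in DMSO hypoxia, 73.8, 76.2 and 76.0 in MLN4924 normoxia and 69.2, 73.8 and 71.2 in MLN4924 hypoxia. Col6a2 stood at 49.5, 49.5 and 50.8 FPKM in DMSO normoxia, 26.4, 36.4 and 34.8 in DMSO hypoxia, 24.9, 25.1 and 25.8 in MLN4924 normoxia and 25.1, 24.7 and 25.1 in MLN4924 hypoxia. For each gene DMSO normoxia was the highest group and DMSO hypoxia the second, with no overlap between them or with the MLN4924 groups.

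Col6a1 fell 1.46-fold with hypoxia in DMSO (log2 -0.54 ± 0.088, limma adjusted p = 0.00101), 2.13-fold with MLN4924 in normoxia (-1.09 ± 0.088, 2.02e-05) and 1.54-fold with MLN4924 in hypoxia (0.000613). Col6a2 fell 1.53-fold, 1.94-fold and 1.28-fold in the same comparisons (limma adjusted p = 0.00091, 9.55e-05 and 0.0232). The last of these was lost without DMSO hypoxia replicate 2 or 3 or any one of the MLN4924 hypoxia libraries (limma adjusted p up to 0.0680), and with 11 libraries it was 1.41-fold (1.39e-05). Also with 11, the falls with hypoxia in DMSO were 1.34-fold for Col6a1 and 1.39-fold for Col6a2, and that of Col6a1 with MLN4924 in hypoxia was 1.68-fold. With hypoxia in MLN4924 neither gene passed, with intervals (95%) of the log2 change from -0.27 to 0.12 for Col6a1 and -0.23 to 0.20 for Col6a2.

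Col6a3, the third chain, stood at 11.04, 7.23 and 9.18 FPKM in DMSO normoxia, 3.18, 2.18 and 2.55 in MLN4924 normoxia and 4.30, 5.98 and 5.78 in MLN4924 hypoxia. In DMSO hypoxia it was listed at 0 in replicate 1 and stood at 8.25 and 6.91 in the others, so the spread of the 12-library fit was wide (SE of log2 0.66). It passed no comparison with 12 libraries. With 11 it fell 2.78-fold with MLN4924 in normoxia (limma adjusted p = 0.000119) and rose 1.75-fold with hypoxia in MLN4924 (0.00358). Col6a4, Col6a5 and Col6a6 did not exceed 0.15 FPKM.

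Among fibril-associated collagens, Col12a1 rose with hypoxia in both treatments. It encodes type XII collagen, a long chain that binds fibrils in tissues under load. Its values were 23.1, 24.0 and 23.0 FPKM in DMSO normoxia, 24.6, 50.1 and 50.5 in DMSO hypoxia, 25.6, 23.4 and 24.0 in MLN4924 normoxia and 52.8, 60.2 and 54.9 in MLN4924 hypoxia. Normoxia libraries of both treatments lay between 23.0 and 25.6 FPKM, and all hypoxia libraries except DMSO hypoxia replicate 1 lay above 50. The rise was 1.67-fold in DMSO with 12 libraries (log2 0.74 ± 0.22, limma adjusted p = 0.0242) and 2.10-fold with 11 (1.07 ± 0.059, 1.03e-06). In MLN4924 it was 2.25-fold (limma adjusted p = 0.0027). With 12 libraries the DMSO call was lost without any one of the DMSO normoxia libraries or without DMSO hypoxia replicate 2 or 3 (limma adjusted p up to 0.0765). MLN4924 gave no call in either oxygen condition.

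Col16a1, a minor matrix collagen, stood at 7.74, 6.90 and 11.3 FPKM in DMSO normoxia, 16.0, 22.1 and 10.6 in DMSO hypoxia, 6.18, 5.42 and 6 in MLN4924 normoxia and 6.29, 11.6 and 7.43 in MLN4924 hypoxia. Its replicates were spread widely, and DMSO hypoxia overlapped both DMSO normoxia and MLN4924 hypoxia. It passed with 12 libraries for hypoxia in DMSO (1.75-fold higher, limma adjusted p = 0.0418) and for MLN4924 in hypoxia (1.80-fold lower, 0.041) and with 11 for neither (0.072 and 0.0672). With 12, both were also lost without DMSO normoxia replicate 1, DMSO hypoxia replicate 2, any one of the MLN4924 normoxia libraries or MLN4924 hypoxia replicate 3 (limma adjusted p up to 0.134 and 0.139). The first was also lost without DMSO normoxia replicate 2, and the second without MLN4924 hypoxia replicate 1. Col22a1 lay between 1.06 and 2.24 FPKM and passed 1 comparison, with 11 libraries only (1.31-fold lower with MLN4924 in normoxia, limma adjusted p = 0.0451). Col9a2, Col9a3, Col14a1 and Col20a1 did not exceed 0.36 FPKM.

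Of the remaining collagens, only Col8a1 changed. It encodes a short-chain collagen of vessel walls and of the membrane beneath the corneal endothelium. It stood at 13.8, 12.8 and 11.9 FPKM in DMSO normoxia, 10.8, 11.7 and 11.3 in DMSO hypoxia, 22.9, 21.5 and 19.7 in MLN4924 normoxia and 20.1, 20.8 and 20.8 in MLN4924 hypoxia. All MLN4924 libraries were above all DMSO libraries. It rose 1.62-fold with MLN4924 in normoxia (log2 0.69 ± 0.074, limma adjusted p = 0.000132) and 1.76-fold in hypoxia (0.82 ± 0.074, 4.77e-05), and both calls passed whichever library was left out (1.72-fold in hypoxia with 11). Col7a1, the anchoring fibril collagen of skin, lay between 1.05 and 2.04 FPKM and passed no test with either set. Col8a2, Col10a1, Col26a1 and Col28a1 did not exceed 0.37 FPKM, and the transmembrane collagens Col17a1 and Col23a1 did not exceed 0.39.

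**Figure D4:**
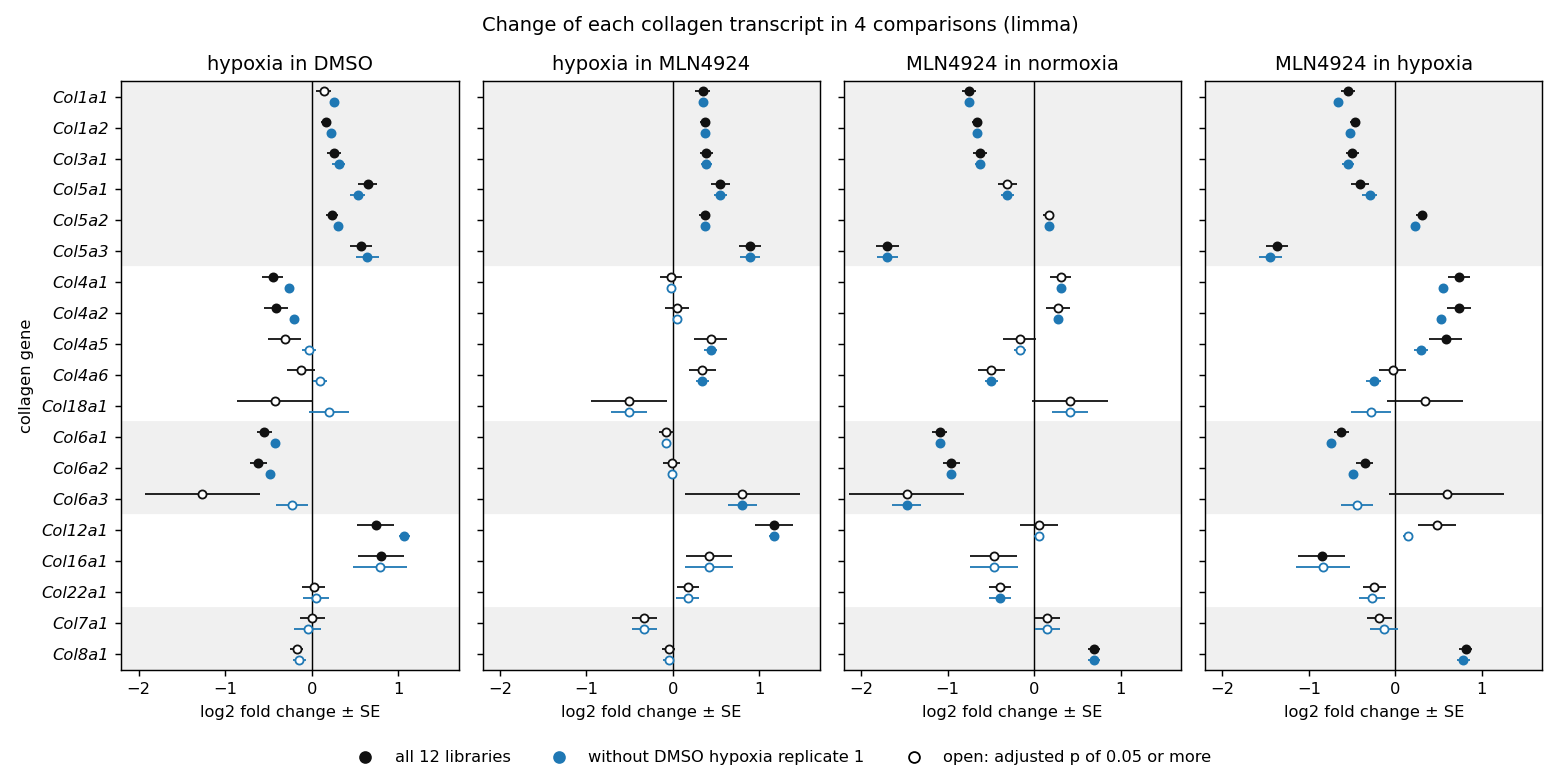
Log2 fold change of each tested collagen in the 4 pairwise comparisons on the log2(FPKM + 1) scale, with bars of 1 SE of the limma fit, in black for 12 libraries and in blue for the 11 without DMSO hypoxia replicate 1; open points did not pass. Under MLN4924 in normoxia Col5a3 lies lowest among those that passed with 12 libraries, at -1.69, and Col8a1 highest, at 0.69.

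Whether the response to hypoxia differed between treatments was asked with the interaction, the log2 change with hypoxia in MLN4924 minus that in DMSO. No collagen passed with 12 libraries in limma, where 0.958% of all genes passed as higher and 0.926% as lower. At an unadjusted p under 0.05, 6 collagens were higher and 0 lower, and with 11 libraries 8 and 1. With 11 libraries 7 passed, all higher (3.3% of all genes higher and 2.21% lower). They were all 3 tested type VI chains, Col4a1, Col4a2 and Col4a5, and Col1a2. The largest interaction among those of at least 10 FPKM was for Col4a5 and Col6a2, both at 0.46 (log2, limma adjusted p = 0.0362 and 0.00127 with 11 libraries, 0.236 and 0.0614 with 12).

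The ratio of chains that share a helix was compared within each library, where a factor common to both chains cancels. Ratios are of FPKM and thus per transcript length. Exact permutation tests of 3 libraries against 3 were two-sided and cannot give a p below 0.1, and 40 were made (10 ratios in 4 comparisons), so no ratio can pass 0.05 and the test only shows which groups did not overlap. The ratio of Col1a1 to Col1a2 was 1.14 ± 0.0152 in DMSO normoxia, 1.12 ± 0.0776 in DMSO hypoxia (1.16 without replicate 1), 1.07 ± 0.0106 in MLN4924 normoxia and 1.06 ± 0.025 in MLN4924 hypoxia (SD, n = 3). Type I protein is a helix of 2 α1 chains and 1 α2 chain, and the transcript ratio stayed near 1 in all groups. The ratio of Col4a1 to Col4a2 lay between 1.00 and 1.11 over the 12 libraries, also in DMSO hypoxia replicate 1, where each gene was far below its other replicates.

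Some groups did not overlap for Col1a1 to Col1a2 and Col4a1 to Col4a2 either. The first ratio was lower with MLN4924 in normoxia (1.07 against 1.14, exact permutation p = 0.1). The second was lower with hypoxia in MLN4924 (1.03 against 1.08, exact permutation p = 0.1). Other chain pairs also differed between groups. Col4a5 to Col4a6 was 2.18 ± 0.152 in DMSO normoxia and 1.91 ± 0.117 in DMSO hypoxia (1.98 without replicate 1), and 2.90 ± 0.173 and 3.02 ± 0.239 in MLN4924, normoxia first. The MLN4924 groups did not overlap with the DMSO groups (exact permutation p = 0.1 in both oxygen conditions). Col6a1 to Col6a2 was lower with MLN4924, at 2.98 ± 0.0481 and 2.86 ± 0.117, than with DMSO, at 3.24 ± 0.0333 and 3.44 ± 0.21 (3.39 without DMSO hypoxia replicate 1). In type V, the mean of Col5a3 to Col5a2 was 0.129 with DMSO and 0.0296 with MLN4924 in normoxia, and 0.166 (0.167 without DMSO hypoxia replicate 1) and 0.0479 in hypoxia, without overlap. Between classes, Col4a1 to Col1a1 stood at 0.128 ± 0.00431, 0.0851 ± 0.00699, 0.269 ± 0.0042 and 0.208 ± 0.00482 in DMSO normoxia, DMSO hypoxia, MLN4924 normoxia and MLN4924 hypoxia, and no library of a group overlapped with another group. In this ratio DMSO hypoxia replicate 1 stood at 0.0772, still below the other replicates of its group at 0.0904 and 0.0876.

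**Figure D5:**
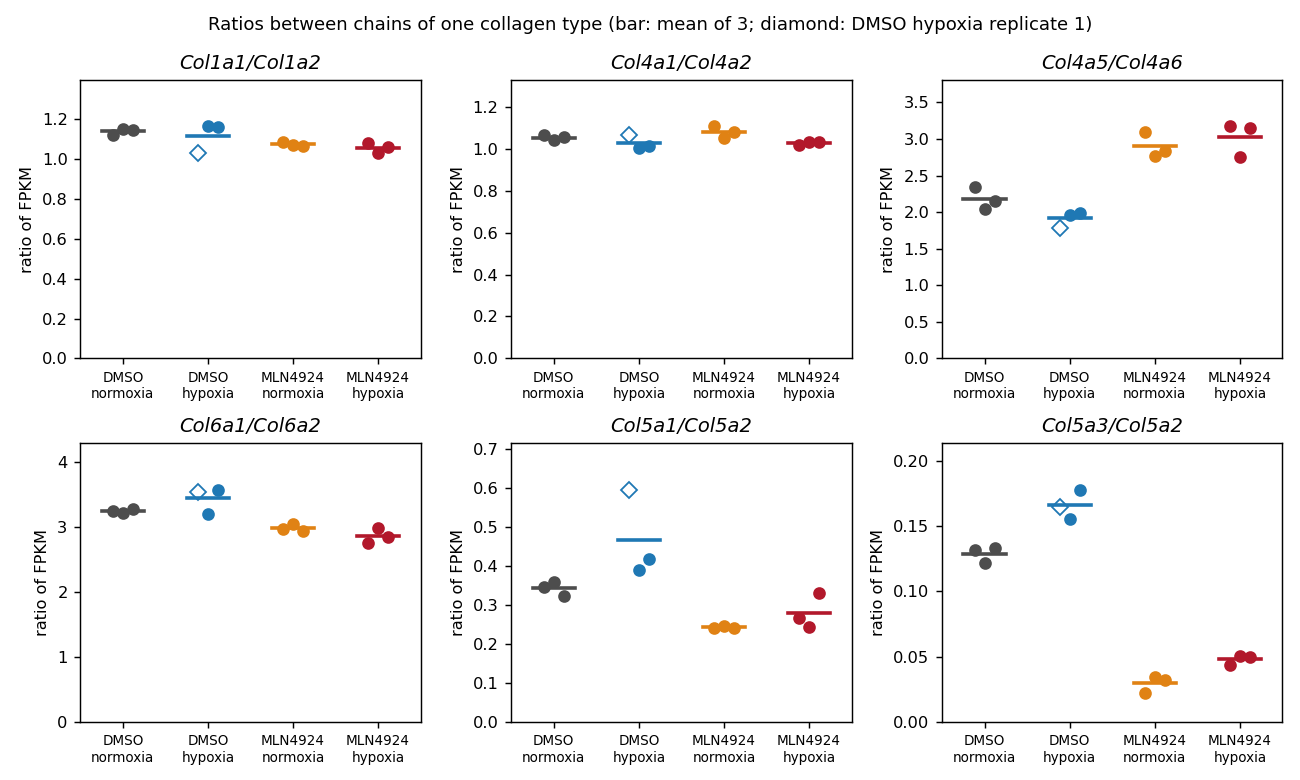
Ratio of FPKM between 2 chains of a collagen type, with 1 point per library by group, a line for the mean of 3, and an open diamond for DMSO hypoxia replicate 1; each panel starts at 0. The Col1a1 to Col1a2 and Col4a1 to Col4a2 ratios stay near 1 in all groups, whereas Col5a3 to Col5a2 lies between 0.0223 and 0.0503 with MLN4924 and between 0.122 and 0.178 with DMSO.

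Genes that act on collagen chains were taken from lists of textbook members. Of 18 hydroxylases and lysyl oxidases, all tested, 11 rose and 4 fell with hypoxia in DMSO (11 and 3 with 11 libraries), and with MLN4924 in normoxia 1 rose and 7 fell (3 and 9). The matching shares of all tested genes were 13.8% higher and 19.4% lower for hypoxia in DMSO (14.8% and 23.9% with 11 libraries), and 9.33% higher and 10.7% lower for MLN4924 in normoxia (16% and 18.2%). Among them P4ha2, a subunit of prolyl 4-hydroxylase, rose 2.58-fold with hypoxia (2.66-fold with 11 libraries) and fell 1.65-fold with MLN4924 (limma adjusted p = 5.54e-07 and 7.91e-05). Loxl2, a crosslinking oxidase, rose 2.16-fold with hypoxia (limma adjusted p = 2.15e-05) and 2.37-fold with 11 libraries. P4ha3 and P3h1 fell with hypoxia, with log2 changes of -0.81 and -0.45 (-0.63 and -0.41 with 11 libraries). Plod1, a lysyl hydroxylase, fell 1.78-fold with MLN4924 in normoxia (limma adjusted p = 1.47e-06). The list's median log2 change was 0.38 for hypoxia in DMSO (0.42 with 11 libraries) and -0.13 for MLN4924 in normoxia, beside -0.08 and -0.03 over all tested genes.

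Of 13 tested genes of procollagen folding, export and trimming, 1 rose and 3 fell with hypoxia in DMSO with either set of libraries, and with MLN4924 in normoxia 0 rose and 5 fell (0 and 6 with 11 libraries). With so few members, these counts with hypoxia lie near the share of all genes. Serpinh1, the collagen chaperone, fell with hypoxia in DMSO from 379 ± 21.3 to 275 ± 67.6 FPKM (SD, n = 3; limma adjusted p = 0.0302), and with 11 libraries its log2 change went from -0.49 to -0.27. Pcolce, which speeds the trimming of fibrillar procollagen, fell 1.96-fold with MLN4924 (limma adjusted p = 6.49e-06), and Adamts2, the protease that removes the N-terminal propeptide, fell 1.89-fold (3.32e-05).

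The remaining lists are receptors, matrix partners and a signalling pathway, and their counts are set beside the same shares of all genes. With 12 libraries these were 13.8% higher and 19.4% lower with hypoxia in DMSO and 9.33% and 10.7% with MLN4924 in normoxia. With 11 libraries they were 14.8% and 23.9% with hypoxia in DMSO and 16% and 18.2% with MLN4924 in normoxia. Of 8 tested collagen receptors, 1 rose and 0 fell with hypoxia in DMSO (2 and 0 with 11 libraries) and with MLN4924 in normoxia 1 rose and 4 fell, with the integrin β1 chain Itgb1 higher in both (1.305-fold and 1.43-fold with 12 libraries) and Itga11, an integrin subunit that binds fibrillar collagen, down from 1.64 to 0.337 FPKM with MLN4924. Of 11 tested partners of collagen in the basement membrane, 1 rose and 0 fell with hypoxia (5 and 0 with 11 libraries) and with MLN4924 in normoxia 1 rose and 2 fell (1 and 5). With 12 libraries the counts with hypoxia for receptors and basement membrane partners, 1 each, are near the share of all genes. Nid1, which bridges laminin and type IV collagen, rose 2.25-fold with MLN4924 (limma adjusted p = 0.000231), in the direction of Col4a1 and Col4a2, while the laminin chain Lamb2 fell 1.60-fold (0.00862). Of 6 tested fibril partners, 1 rose and 1 fell in each of these comparisons, and with 11 libraries 4 rose and 0 fell with hypoxia and 4 rose and 2 fell with MLN4924. Bgn, a small proteoglycan of fibrils, fell 1.48-fold with MLN4924 and Thbs1, a matricellular glycoprotein, rose 2.73-fold. Of 14 genes of TGF-beta signalling, a pathway known to raise fibrillar collagen transcription, 4 rose and 6 fell with hypoxia in DMSO (3 and 7 with 11 libraries) and with MLN4924 in normoxia 4 rose and 0 fell (4 and 5 with 11). Its target gene Ccn2 rose 8.87-fold with MLN4924 in normoxia (limma adjusted p = 2.10e-08), where most fibrillar collagens fell.

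In the comparisons that include MLN4924 hypoxia, the lists are given beside all tested genes, of which 11.7% rose and 16.5% fell with hypoxia in MLN4924 (17.9% and 24.7% with 11 libraries) and 12.2% rose and 13.3% fell with MLN4924 in hypoxia (16.8% and 15.7%). Of 18 hydroxylases and lysyl oxidases, with hypoxia in MLN4924 9 rose and 0 fell (9 and 1 with 11 libraries), and with MLN4924 in hypoxia 3 rose and 6 fell (3 and 10). For folding, export and trimming, 2 of 13 rose and 3 fell with hypoxia in MLN4924 with either set, near the share of all genes, and 1 rose and 5 fell with MLN4924 in hypoxia (2 and 4 with 11). Of 8 receptors 2 rose and 0 fell with hypoxia in MLN4924 (4 and 0 with 11), and 1 rose and 2 fell with MLN4924 in hypoxia (1 and 3). Of 11 basement membrane partners 2 rose and 0 fell with hypoxia in MLN4924 (6 and 0 with 11), and 2 rose and 1 fell with MLN4924 in hypoxia (2 and 4). Of 6 fibril partners 1 rose and 0 fell with hypoxia in MLN4924 (5 and 0 with 11), and 2 rose and 1 fell with MLN4924 in hypoxia (3 and 2). For TGF-beta signalling 3 of 14 rose and 2 fell with hypoxia in MLN4924 (3 and 6 with 11), and 3 rose and 0 fell with MLN4924 in hypoxia (3 and 1).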

How the data were processed

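Total RNA of 12 libraries was sequenced as paired reads. The authors deposited 1 table of FPKM, rounded to 2 decimals, with 24770 gene symbols and 1 column per library, and all columns were used. The submitters' processing notes name fastp, STAR, RSEM 1.3.3 and genome build mm39, without roles, and strand use and annotation are not given in the sources used here. FPKM holds no read counts, so sequencing depth was unknown and no counting interval is given. Column totals of FPKM are given as a description of the libraries and do not measure depth, since FPKM is already scaled by library size.

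The 12311 genes that reached 1 FPKM in 3 or more of the 12 libraries were tested. limma 3.58.1 (R 4.3.3) was run on log2(FPKM + 1), with 4 group means, 1 shared spread and an intensity trend. Two-sided p-values of each of 5 contrasts were corrected over all tested genes after Benjamini and Hochberg, with 0.05 as the threshold. The fit was tested on simulated data with known changes. Those data held no deviating library and no trend with transcript length, so that test does not cover DMSO hypoxia replicate 1. Replicates are biological per the series text, and nothing further says how the cultures were separated, so p-values measure the spread between these libraries.

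The collagens, their classes and the partner and marker lists were chosen with earlier results of these data known. Values in every library are printed for tested collagens with a group mean of at least 10 FPKM and for the 6 largest changes per contrast, and the others are given by range; Col6a3 was added after its values were seen. For partner lists the 2 largest changes in each direction could be named. Transcript lengths came from GENCODE and promoter windows from RefSeq, both on GRCm38, matched by symbol. Alternatives were other scalings, pseudocounts, filters, array weights, a replicate block, removal of the length trend and leaving out each library. The fit with the length trend removed and DMSO hypoxia replicate 1 left out was added after the data were seen.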

Additional observations from a re-analysis of the deposited data

Results flagged for a closer look

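With DMSO hypoxia replicate 1 left out, the response to hypoxia differed between treatments for 7 collagens by limma's interaction test, and none of them passed with all 12 libraries. Each value is the log2 change with hypoxia in MLN4924 minus that in DMSO. For type VI it was 1.03 for Col6a3 (limma adjusted p = 0.0448), 0.46 for Col6a2 (0.00127) and 0.35 for Col6a1 (0.00655). For type IV it was 0.46 for Col4a5 (limma adjusted p = 0.0362), 0.25 for Col4a2 (0.0169) and 0.24 for Col4a1 (0.0250). For type I it was 0.14 for Col1a2 (limma adjusted p = 0.0319). With 12 libraries the values were larger, 2.07 for Col6a3, 0.60 for Col6a2, 0.47 for Col6a1, 0.75 for Col4a5, 0.46 for Col4a2, 0.43 for Col4a1 and 0.20 for Col1a2, with wider errors. No formal test for an outlying value was applied within groups of 3 libraries.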

How the results depend on the processing

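Of 2071 values of single collagens under the alternatives, 1880 stayed on their side of the threshold (1832 with the same sign and 48, called in neither fit, with the other), 84 passed it newly, 107 no longer passed and none that was called changed sign; the cause of each change was not tested. For hypoxia in DMSO, the 7 collagens that rose became 2 with a fixed total and 2 with only the 6 libraries compared. They became 2 to 7 when 1 library was left out. The 4 that fell became 2 with only those 6, and 2 to 4 when 1 was left out. Of all 12311 tested genes, 1700 rose and 2393 fell, and 944 and 1280 with only those 6. With a fixed total 1591 of all genes rose. When 1 library was left out, 1278 to 1837 of all genes rose and 1739 to 2948 fell. For MLN4924 in normoxia, the 1 that rose became 4 with array weights, with the length trend removed (with or without DMSO hypoxia replicate 1) and with only the 6 libraries. It became 1 to 4 when 1 was left out (4 without DMSO hypoxia replicate 1). The 6 that fell became 10 with array weights and with only the 6, and 6 to 10 when 1 was left out. Of all genes 1149 rose and 1318 fell, with array weights 2098 and 2426, and with only the 6 libraries 1928 and 2140. With the length trend removed 1620 of all genes rose, and 2170 with DMSO hypoxia replicate 1 also out. When 1 was left out, 773 to 1975 of all genes rose and 875 to 2240 fell. For MLN4924 in hypoxia, the 5 that rose became 2 with only the 6 libraries, and 4 to 5 when 1 was left out. The 8 that fell became 5, and 5 to 8 (5 without MLN4924 hypoxia replicate 1). Of all genes 1498 rose and 1639 fell, and 621 and 643 with only the 6 libraries. When 1 was left out, 1047 to 2066 of all genes rose and 1098 to 1927 fell. For hypoxia in MLN4924, the 7 that rose became 11 with the length trend and DMSO hypoxia replicate 1 both removed, and 7 to 10 when 1 was left out. Of all genes 1439 rose, 2513 with both removed, and 1062 to 2199 when 1 was left out. For the interaction, the 0 higher became 6 with array weights, 3 with the length trend removed, 7 with that library removed too, and 0 to 7 when 1 was left out. Of all genes 118 were higher, and in the same order 478, 228, 354 and 42 to 406.

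Replicate numbers were shared between groups, but over 12 same-numbered pairs the correlations of deviations ran from -0.0697 to 0.0993, none over 0.1, so the numbers were not taken as pairs. With a replicate block, 5 collagens rose and 3 fell for hypoxia in DMSO, 1 and 6 for MLN4924 in normoxia, and 4 and 7 for MLN4924 in hypoxia. The counts were 7 and 0 for hypoxia in MLN4924, and 0 and 0 for the interaction. Of all 12311 tested genes the block gave, in the same order, 1569 and 2202, 983 and 1159, 1337 and 1463, 1309 and 1861, and 56 and 76. The depth behind low values, such as those of Col18a1, Col7a1 and Col22a1, is unknown, and the 20 collagens below the filter were tested only in the fit without a filter.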
